A study of Yarrowia lipolytica with 4 samples.

Results

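Vitamin and cofactor metabolism in the oleaginous yeast Yarrowia lipolytica is described here through 90 genes out of 6797 in the deposited table. A gene was chosen if its annotation named 1 of 8 vitamin pathways (thiamine, riboflavin, vitamin B6, nicotinate and nicotinamide, pantothenate and CoA, biotin, folate biosynthesis, one-carbon pool by folate) or if its description held the word thiamine. Genes that the annotation also placed in amino acid biosynthesis, purine metabolism or pyrimidine metabolism were left out. Of the 90 genes, 78 came in through a pathway and 12 through the description alone, and 87 carried an ortholog (KO) number, from which the enzyme is named where the description is general. These annotations are broad. By role, 63 genes belonged to 8 vitamin groups. Most of these make, salvage, activate or carry a cofactor or pass on its one-carbon units. Some use the cofactor, such as the 3 sirtuins of the NAD group. The other 27 were 8 enzymes that use thiamine diphosphate, 3 permeases, 9 phosphatases and 7 aldehyde dehydrogenases.

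RNA was compared between strain F19 and the control strain WLH, in a study that built a genome-wide CRISPR interference library to raise the yeast's tolerance of furfural and acetic acid. CRISPR interference lowers the transcription of a gene through a Cas9 that binds but does not cut. The labels do not name the gene targeted in F19, and no check of it was made. Both strains derive from PO1f, a laboratory strain of Y. lipolytica that needs added leucine and uracil, and both were cultured with 2.4 mM furfural, an inhibitor released from plant biomass, in leucine-free synthetic medium (30 °C, 48 h). F19 and WLH are represented by 2 libraries each, all from medium with furfural. Whether these are separate cultures is not stated, so a p-value covers the spread between the libraries alone, which may be technical. In bulk RNA a change in the share of cells that express a gene and a change in its RNA per cell cannot be told apart.

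Vitamins of the B group are built into coenzymes that many enzymes share. Thiamine becomes thiamine diphosphate, which serves the decarboxylases and dehydrogenases of 2-oxoacids, riboflavin becomes FMN and FAD, vitamin B6 becomes pyridoxal phosphate for reactions of amino acids, and pantothenate becomes CoA. Biotin carries carbon dioxide for carboxylases and folate carries one-carbon units. Y. lipolytica is known to need thiamine from its medium, and strains short of thiamine release 2-oxoacids.

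Levels are given as normalised FPKM, in which each count is divided by exonic length and by the library total scaled with its TMM factor, and folds are F19 over WLH. Gene counts summed to 19486940 and 18796443 in the F19 libraries and to 24129664 and 18244313 in the WLH libraries, of which the 90 genes took between 1.45% and 1.54%. All but 1 gene passed the filter on low counts. That gene, the aldehyde dehydrogenase BKA90DRAFT_98450, had 2 and 1 counts in F19 and 1 and 9 in WLH. A gene was called at an adjusted p under 0.05 in edgeR's quasi-likelihood test over all 6414 genes tested.

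Of the 89 vitamin and cofactor genes tested, 36 fell in F19, 14 rose and 39 did not pass. Among all genes tested 51.4% were called, 25.5% as lower and 25.9% as higher, so falls made up a larger share of these genes (40.4%) and rises a smaller one (15.7%). The median log2 fold change of the 89 genes was -0.25, beside 0.01 over all genes, and no test of the list was made. Changes of 2-fold or more numbered 15 falls and 7 rises, where 9.18% of all genes fell and 10.4% rose as far. Strain values did not overlap for 70 of the 89 genes, a share to be read beside 79.5% of all genes. Directions are relative to the TMM scaling: with library totals in its place 23 genes were called lower and 22 higher, beside 16.6% and 37.7% of all genes, and the median was -0.02 beside 0.24 over all genes. Without WLH replicate 2, 21 of the 89 genes fell and 6 rose, beside 13.3% and 12.5% of all genes. Without WLH replicate 1, 24 fell and 8 rose, where each direction held 14.8% of all genes. Leaving out an F19 library moved the counts less: 35 fell and 16 rose without F19 replicate 1, beside 24.5% and 23.7% of all genes, and 37 fell and 12 rose without F19 replicate 2, beside 22.5% and 22.6%. With the replicate number as a block 39 fell and 15 rose, beside 26% and 26.5%. Where at least 1 CPM was required in all 4 libraries 36 fell and 11 rose, beside 1542 and 1579 of all 6052 genes then tested.

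**Figure D1:**
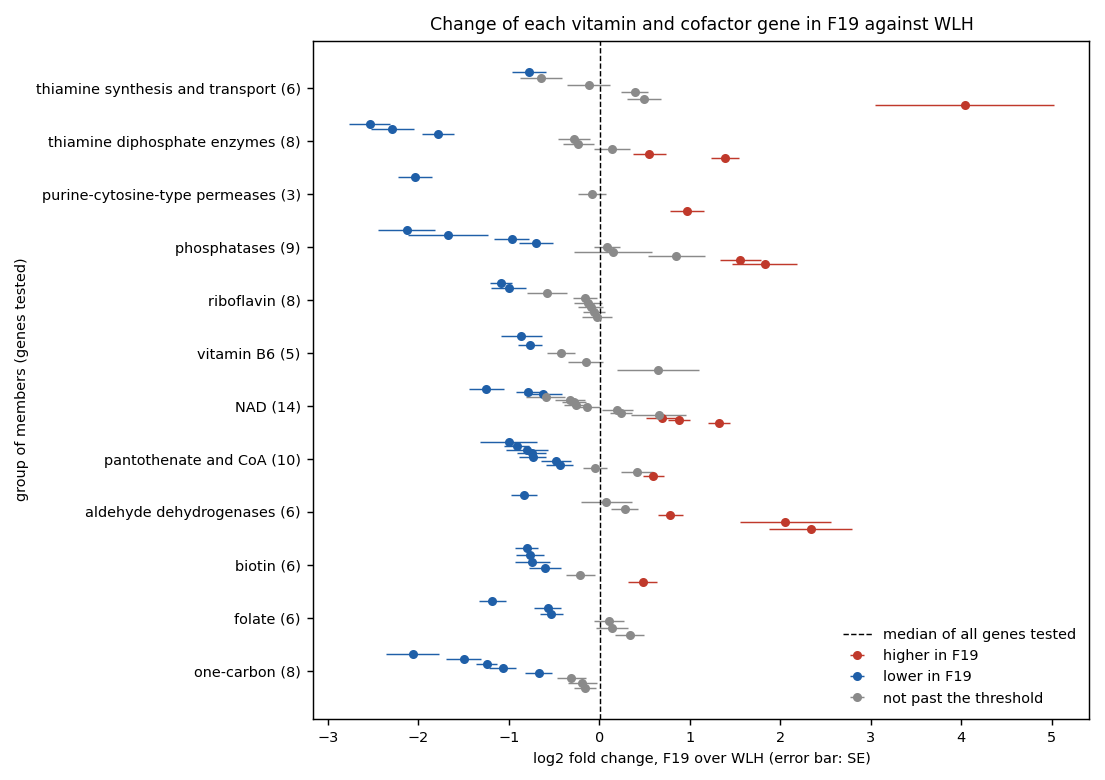
Log2 fold change of F19 over WLH for the 89 genes tested, 1 point per gene with its standard error, by group. Red points rose, blue points fell, grey points did not pass, and the dashed line is the median of all 6414 genes tested (0.01). All 5 called one-carbon genes lie left of the line, and thiamine thiazole synthase, at 4.04, lies farthest right.

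Thiamine synthesis joins a thiazole ring to a pyrimidine ring. The 6 genes of this group held 1 rise, 1 fall and 4 that did not pass. That is 16.7% in each direction, beside 25.9% of all genes that rose and 25.5% that fell. Thiamine thiazole synthase, BKA90DRAFT_139930, which makes the thiazole ring, lies at 86746 to 87733 of scaffold ML756023.1 on the minus strand. It had 80.9 and 899.5 normalised FPKM in F19, against 23.2 and 36.7 in WLH. Both F19 libraries lay above both WLH libraries, but the F19 libraries differed 11.1-fold from each other. The rise was 16.4-fold, or 4.04 ± 0.99 on the log2 scale (SE; adjusted p = 0.0134). Without F19 replicate 2 the rise was 2.74-fold and without F19 replicate 1 it was 30.1-fold. With 1 F19 library left the spread comes from the WLH libraries alone, so these fits leave out the gap between the F19 libraries. The call was lost without WLH replicate 1 (adjusted p = 0.121), without WLH replicate 2 (adjusted p = 0.0927) and in a robust fit (adjusted p = 0.0885). In the authors' deposited table the gene is listed with a log2 fold change of 4.04 ± 1.41 (SE).

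The next steps of the pathway were not called higher. BKA90DRAFT_142528, which joins the rings through its thiazole kinase and thiamine-phosphate synthase domains, had 24.6 and 37.6 normalised FPKM in F19 and 28.3 and 39.4 in WLH, with overlapping values (log2 fold change -0.12 ± 0.24, SE; adjusted p = 0.693). The pyrimidine kinase BKA90DRAFT_138981 stood at 19.7 and 27.9 in F19 and at 30.5 and 44.1 in WLH, and missed the threshold by little (log2 fold change -0.65 ± 0.23, SE). It was called lower in DESeq2 (adjusted p = 0.0265) and without F19 replicate 2 (0.0242). Thiamine pyrophosphokinase, BKA90DRAFT_138717, which turns thiamine into thiamine diphosphate, fell 1.72-fold, with 18.6 and 16.8 normalised FPKM in F19 against 26.3 and 34.7 in WLH (adjusted p = 0.0128). That call was lost without WLH replicate 2 (adjusted p = 0.105) and with library totals (0.0505). The mitochondrial thiamine pyrophosphate carrier BKA90DRAFT_135540 (log2 fold change 0.49 ± 0.19, SE) did not pass. Nor did the cysteine desulfurase BKA90DRAFT_34114 (0.39 ± 0.15, SE), a gene that the annotation places in thiamine metabolism. Both passed as higher with library totals, where the median of all genes was 0.24. The desulfurase also passed as higher in DESeq2 (adjusted p = 0.0444), with upper-quartile scaling (0.0486) and without F19 replicate 1 (0.0285).

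**Figure D2:**
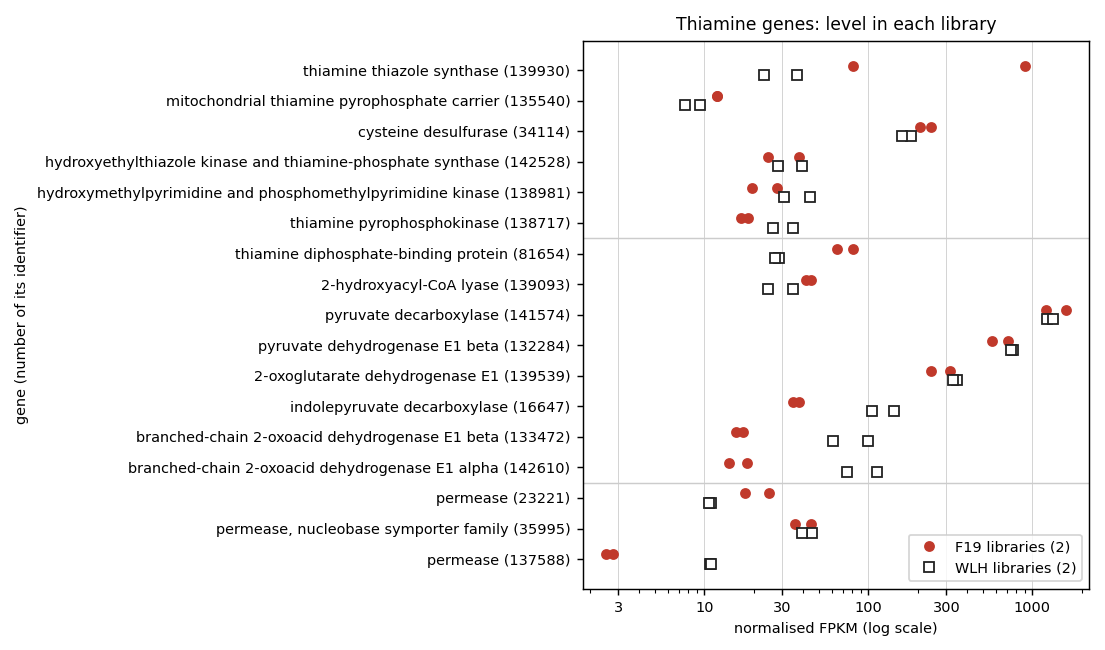
Normalised FPKM (log scale) of the 17 thiamine genes in each library, with F19 as red circles above WLH as open squares, in 3 blocks: synthesis and transport, enzymes that use thiamine diphosphate, and permeases. The F19 circles of thiamine thiazole synthase stand at 80.9 and 899.5, while those of both branched-chain dehydrogenase subunits lie below 20 against more than 60 in WLH.

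Of the 8 enzymes that use thiamine diphosphate, 3 fell, 2 rose and 3 did not pass. Falls made up 37.5% and rises 25%, beside 25.5% and 25.9% of all genes. The alpha and beta E1 subunits of the branched-chain 2-oxoacid dehydrogenase, which breaks down the 2-oxoacids of leucine, isoleucine and valine, fell together. The alpha subunit, BKA90DRAFT_142610 (ML756066.1, 62898 to 64472), had 14.1 and 18.2 normalised FPKM in F19 against 74.7 and 113 in WLH, or -2.54 ± 0.23 on the log2 scale (SE; adjusted p = 0.00055). The beta subunit, BKA90DRAFT_133472 (ML755980.1, 258254 to 259832), had 15.5 and 17.4 in F19 against 60.8 and 99.9 in WLH, or -2.29 ± 0.24 on the log2 scale (SE; adjusted p = 0.000737). In both genes every F19 library was below every WLH library, and the calls held under every alternative run. Indolepyruvate decarboxylase, BKA90DRAFT_16647, by its ortholog number an enzyme of tryptophan breakdown, fell 3.44-fold, with 38.1 and 34.6 in F19 against 106 and 144 in WLH (adjusted p = 0.000685).

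Pyruvate decarboxylase, BKA90DRAFT_141574, which turns pyruvate into acetaldehyde, had the highest mean level of the 90 genes in both strains, with 1618 and 1214 normalised FPKM in F19 and 1229 and 1344 in WLH (adjusted p = 0.587). The pyruvate dehydrogenase E1 beta subunit BKA90DRAFT_132284, which feeds the citrate cycle, had 566 and 714 in F19 and 760.4 and 742 in WLH (adjusted p = 0.288). 2-oxoglutarate dehydrogenase E1, BKA90DRAFT_139539, an enzyme of that cycle, had 243 and 317 in F19 and 350.3 and 329 in WLH (adjusted p = 0.221). These last 2 genes were called lower without F19 replicate 2. A thiamine diphosphate-binding protein with no ortholog number, BKA90DRAFT_81654, rose 2.62-fold, to 65.0 and 80.8 in F19 against 28.6 and 27.0 in WLH (adjusted p = 0.000805). The peroxisomal 2-hydroxyacyl-CoA lyase BKA90DRAFT_139093 rose 1.47-fold (adjusted p = 0.0383), which did not hold without F19 replicate 1 (adjusted p = 0.102), F19 replicate 2 (0.0556) or WLH replicate 2 (0.189).

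Permeases whose family name lists thiamine among cytosine, purines, uracil and allantoin moved in different directions, and the annotation does not say which substrate each carries. BKA90DRAFT_137588 fell 4.11-fold, with 2.80 and 2.52 normalised FPKM in F19 against 10.8 and 11.05 in WLH (adjusted p = 0.00059). BKA90DRAFT_23221 rose 1.96-fold, with 17.8 and 24.7 in F19 against 10.9 and 10.7 in WLH (adjusted p = 0.00534), which was lost without WLH replicate 2 (adjusted p = 0.0543). BKA90DRAFT_35995 overlapped between the strains (adjusted p = 0.693).

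**Figure D3:**
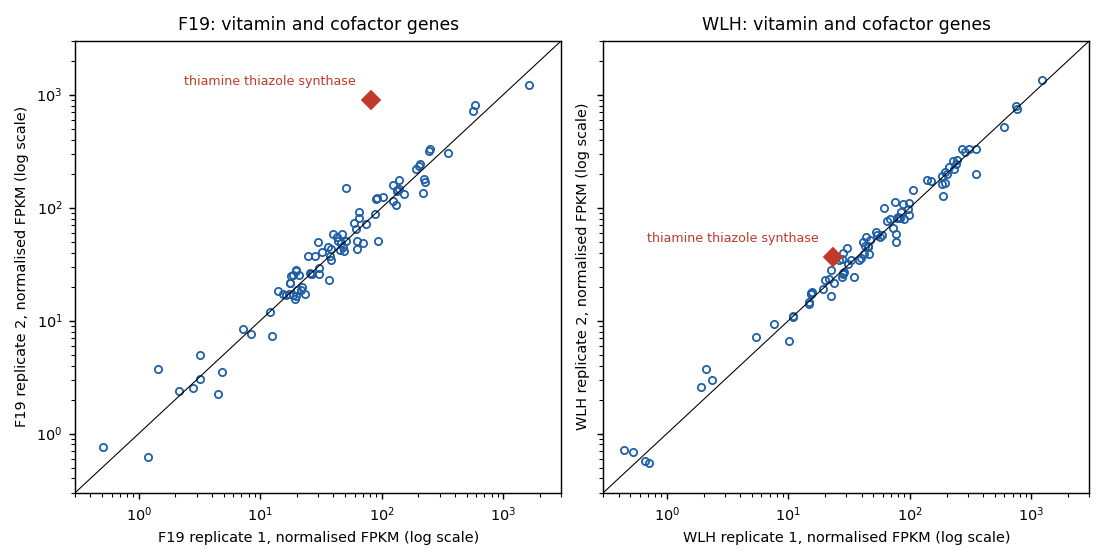
Normalised FPKM of the 89 genes tested in replicate 2 (vertical, log scale) against replicate 1 (horizontal, log scale), for F19 at the left and WLH at the right, with the line of equal levels. Thiamine thiazole synthase (red diamond) leaves the line in F19, at 80.9 and 899.5, and stays near it in WLH, at 23.2 and 36.7.

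With 0.5 CPM added to each value before the ratio, the gap between the F19 libraries of thiamine thiazole synthase was the widest of all 6414 genes tested. Without that addition the ratio of the mitochondrial ADP/ATP carrier BKA90DRAFT_173279 was wider, 11.4 beside 11.1. The other vitamin and cofactor genes at least 2-fold apart in F19 were pyridoxine dehydrogenase BKA90DRAFT_138065 (51.0 and 148 normalised FPKM) and the acid phosphatase BKA90DRAFT_142960 (4.46 and 2.22). Among all genes 1.68% were that far apart in F19. In WLH 0 of the 89 genes were, beside 0.639% of all genes. The median size of the log2 ratio between libraries was 0.29 for these genes in F19, beside 0.18 for all genes, and 0.16 in WLH, beside 0.15.

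Phosphatases entered through the thiamine, riboflavin and folate maps, which list them for removing phosphate from the vitamins. Of 9, 4 fell, 2 rose and 3 did not pass, where 25.5% of all genes fell and 25.9% rose. The 7 with the ortholog number of acid phosphatase were expressed at low levels, at most 17.3 normalised FPKM in any library. Of these, BKA90DRAFT_62871 rose 3.55-fold (adjusted p = 0.00554) and BKA90DRAFT_139189 rose 2.95-fold (adjusted p = 0.00204), while BKA90DRAFT_142960 fell 4.38-fold (adjusted p = 0.00207) and BKA90DRAFT_132612 fell 3.19-fold (adjusted p = 0.0174). BKA90DRAFT_160546, BKA90DRAFT_132293 and BKA90DRAFT_89516 did not pass, with log2 fold changes of 0.85, 0.08 and 0.15. The low molecular weight phosphotyrosine phosphatase BKA90DRAFT_132704 fell 1.96-fold and the alkaline phosphatase BKA90DRAFT_134184 fell 1.62-fold. Without WLH replicate 2, 1 phosphatase rose and 1 fell, and of the 6 calls those of BKA90DRAFT_139189 and BKA90DRAFT_142960 held under every alternative run.

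Folate and one-carbon genes showed falls and no rises. Tetrahydrofolate accepts one-carbon units from serine and glycine and hands them to the synthesis of methionine, purines and thymidylate. Of the 8 one-carbon genes, 5 fell, 4 of them at least 2-fold, and the median log2 fold change was -0.87. Among all genes 25.5% fell, and 9.18% fell at least 2-fold. The T-protein of the glycine cleavage system, BKA90DRAFT_138121 (ML756006.1, 171304 to 172847), which moves the one-carbon unit of glycine onto tetrahydrofolate, had 93.5 and 50.2 normalised FPKM in F19 against 268 and 332 in WLH. Every F19 library was below every WLH library, and the log2 fold change was -2.06 (SE 0.29, adjusted p = 0.00172). 5-formyltetrahydrofolate cyclo-ligase, BKA90DRAFT_110388, which returns formyl-folate to the active pool, fell 2.83-fold, with 19.2 and 15.4 in F19 against 43.2 and 55.0 in WLH (adjusted p = 0.00132).

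Methylenetetrahydrofolate reductase, which makes the methyl-folate used for methionine, has 2 genes, and both fell. BKA90DRAFT_132927 had 37.1 and 37.0 normalised FPKM in F19 against 84.8 and 91.1 in WLH (log2 fold change -1.25 ± 0.12, SE; adjusted p = 0.000619). BKA90DRAFT_136465, the more abundant of the pair, fell 1.59-fold (adjusted p = 0.0101), which missed the threshold without WLH replicate 1 (adjusted p = 0.0666) or WLH replicate 2 (0.0764) and with library totals (0.0535). C1-tetrahydrofolate synthase, which interconverts the forms of the one-carbon unit, also has 2 genes. BKA90DRAFT_133643 fell 2.10-fold, with 151 and 132 in F19 against 285 and 308 in WLH (adjusted p = 0.0018), and BKA90DRAFT_137581 had 74.8 and 71.0 in F19 and 82.0 and 80.6 in WLH and did not pass (adjusted p = 0.322). The remaining one-carbon genes, an NAD-dependent methylenetetrahydrofolate dehydrogenase and methionyl-tRNA formyltransferase, did not pass.

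**Figure D4:**
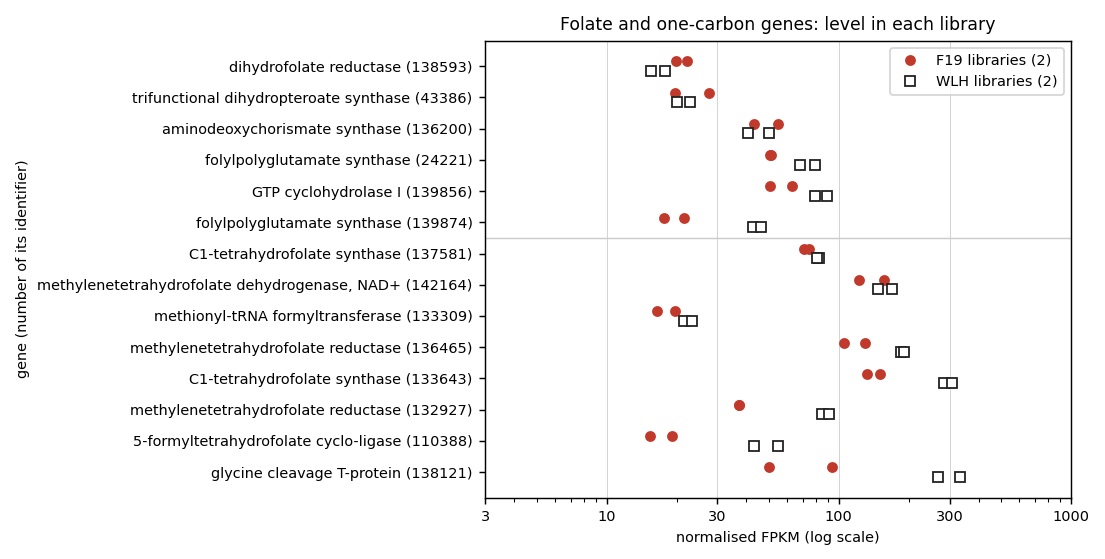
Normalised FPKM (log scale) of the 14 folate and one-carbon genes in each library, with F19 as red circles above WLH as open squares. At the bottom the F19 circles lie left of the WLH squares, down to 93.5 and 50.2 against 268 and 332 for the glycine cleavage T-protein, while dihydrofolate reductase and aminodeoxychorismate synthase at the top did not pass.

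In folate synthesis 3 of 6 genes fell and 3 did not pass, where 25.5% of all genes fell. Both folylpolyglutamate synthases, which add the glutamate tail that keeps folate in the cell, were lower. BKA90DRAFT_139874 had 17.6 and 21.5 normalised FPKM in F19 against 42.6 and 46.0 in WLH, a 2.27-fold fall (adjusted p = 0.0012). BKA90DRAFT_24221 fell 1.44-fold (adjusted p = 0.012), lost without WLH replicate 2 (adjusted p = 0.0929). GTP cyclohydrolase I, BKA90DRAFT_139856, which opens the pathway, fell 1.49-fold (adjusted p = 0.0163), lost without F19 replicate 2 (adjusted p = 0.067), WLH replicate 1 (0.114) or WLH replicate 2 (0.0581). The group median was -0.21 with TMM factors and 0.02 with library totals, where only BKA90DRAFT_139874 was called lower and dihydrofolate reductase was called higher.

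Biotin genes fell at several steps of the synthesis chain, and the enzyme that attaches biotin rose. Of 6, 4 fell, 1 rose and 1 did not pass, where 25.5% of all genes fell and 25.9% rose. 8-amino-7-oxononanoate synthase, BKA90DRAFT_135075, an early step, had 134 and 141 normalised FPKM in F19 against 239 and 241 in WLH, a 1.75-fold fall (adjusted p = 0.00261). The gene for dethiobiotin synthesis, BKA90DRAFT_138728, fell 1.67-fold (adjusted p = 0.0167), lost without WLH replicate 1 (0.0982) or WLH replicate 2 (0.086) and with library totals (0.0551). Biotin synthase, BKA90DRAFT_140109, the last step and the most abundant of the group, had 348 and 306 in F19 against 592 and 521 in WLH (log2 fold change -0.77 ± 0.15, SE; adjusted p = 0.00612), and missed the threshold without WLH replicate 1 (0.0691). The 3-oxoacyl-ACP reductase BKA90DRAFT_12851, shared with fatty acid synthesis, fell 1.52-fold (adjusted p = 0.0248), lost without F19 replicate 1 (0.0595), F19 replicate 2 (0.0572) or WLH replicate 2 (0.173) and with library totals (0.119). Biotin-protein ligase, BKA90DRAFT_132521, which attaches biotin to carboxylases, rose 1.39-fold, with 20.8 and 25.1 in F19 against 15.3 and 17.7 in WLH (adjusted p = 0.0399). It did not pass without F19 replicate 2 (adjusted p = 0.139), WLH replicate 1 (0.21) or WLH replicate 2 (0.0913). Without WLH replicate 1, without WLH replicate 2 or with library totals, 2 of the biotin genes fell, and BKA90DRAFT_135075 was the member of the group called under every alternative run.

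The pantothenate and CoA group, divided by role after the values were seen, held 70% falls. NAD, the other group of at least 10 genes, held 21.4%. The whole annotated pathway, which includes the aldehyde dehydrogenases described below, held 50% falls and 25% rises among 16 genes tested. In the smaller biotin and one-carbon groups the shares of falls were 66.7% and 62.5%. Among all genes 25.5% fell and 25.9% rose. The 10 genes of the role group held 7 falls and 1 rise, and their median was -0.61. Phosphopantothenate-cysteine ligase, BKA90DRAFT_140918, which adds the cysteine that becomes the thiol end of CoA, fell, with 20.1 and 18.5 normalised FPKM in F19 against 38.0 and 34.7 in WLH (log2 fold change -0.91 ± 0.14, SE; adjusted p = 0.00236). Earlier steps fell as well: ketopantoate hydroxymethyltransferase, BKA90DRAFT_140212, 1.74-fold (adjusted p = 0.0251), and ketopantoate reductase, BKA90DRAFT_135495, 1.67-fold (adjusted p = 0.0063). Pantothenate kinase, which commits the vitamin to CoA, has 2 annotated genes, BKA90DRAFT_86464 (1.68-fold lower, adjusted p = 0.00837) and BKA90DRAFT_140043 (2.00-fold lower, adjusted p = 0.0321). They lie on the same strand of ML756024.1, at 125048 to 126484 and 126447 to 127307, and overlap by 38 bases, so reads there cannot be told apart. They may be 1 gene that the annotation splits, in which case they count as 1 fall and not 2. Phosphopantetheinyl transferase, BKA90DRAFT_135718, which moves part of CoA onto carrier proteins, rose 1.51-fold, with 88.2 and 86.9 in F19 against 58.7 and 57.2 in WLH (adjusted p = 0.00593).

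Several of these CoA calls were lost when a WLH library was left out, and several with another scaling or test. Without a WLH library the spread comes from the F19 libraries alone, and fewer of all genes were called as well. The group median was -0.51 without WLH replicate 1 and -0.59 without WLH replicate 2, beside -0.61 with all 4 libraries. The falls numbered 5 in DESeq2, 5 with upper-quartile scaling and 3 in limma on log2(FPKM + 1). Pantoate-beta-alanine ligase, BKA90DRAFT_133291 (1.35-fold lower), and dephospho-CoA kinase, BKA90DRAFT_135250 (1.39-fold lower), were lost in DESeq2 (adjusted p = 0.0555 and 0.0528). Both were also lost with upper-quartile scaling (0.0577 and 0.0598), with library totals (0.278 and 0.241) and in limma on log2(FPKM + 1) (0.263 and 0.197). They did not pass either when F19 replicate 1, WLH replicate 1 or WLH replicate 2 was left out. BKA90DRAFT_140212 (0.0721) and BKA90DRAFT_140043 (0.0778) did not pass with library totals either. BKA90DRAFT_140212 did not pass without WLH replicate 1 (adjusted p = 0.145) or WLH replicate 2 (0.0947), BKA90DRAFT_135495 without WLH replicate 2 (0.0571), BKA90DRAFT_86464 without WLH replicate 1 (0.0644) and BKA90DRAFT_140043 without F19 replicate 2 (0.1202) or WLH replicate 1 (0.226). In all, the falls numbered 2 without WLH replicate 1, 3 without WLH replicate 2 and 3 with library totals. BKA90DRAFT_140918 was the gene of the group called under every alternative run. The rise of BKA90DRAFT_135718 missed the threshold without WLH replicate 1 (adjusted p = 0.051) and WLH replicate 2 (0.0605).

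**Figure D5:**
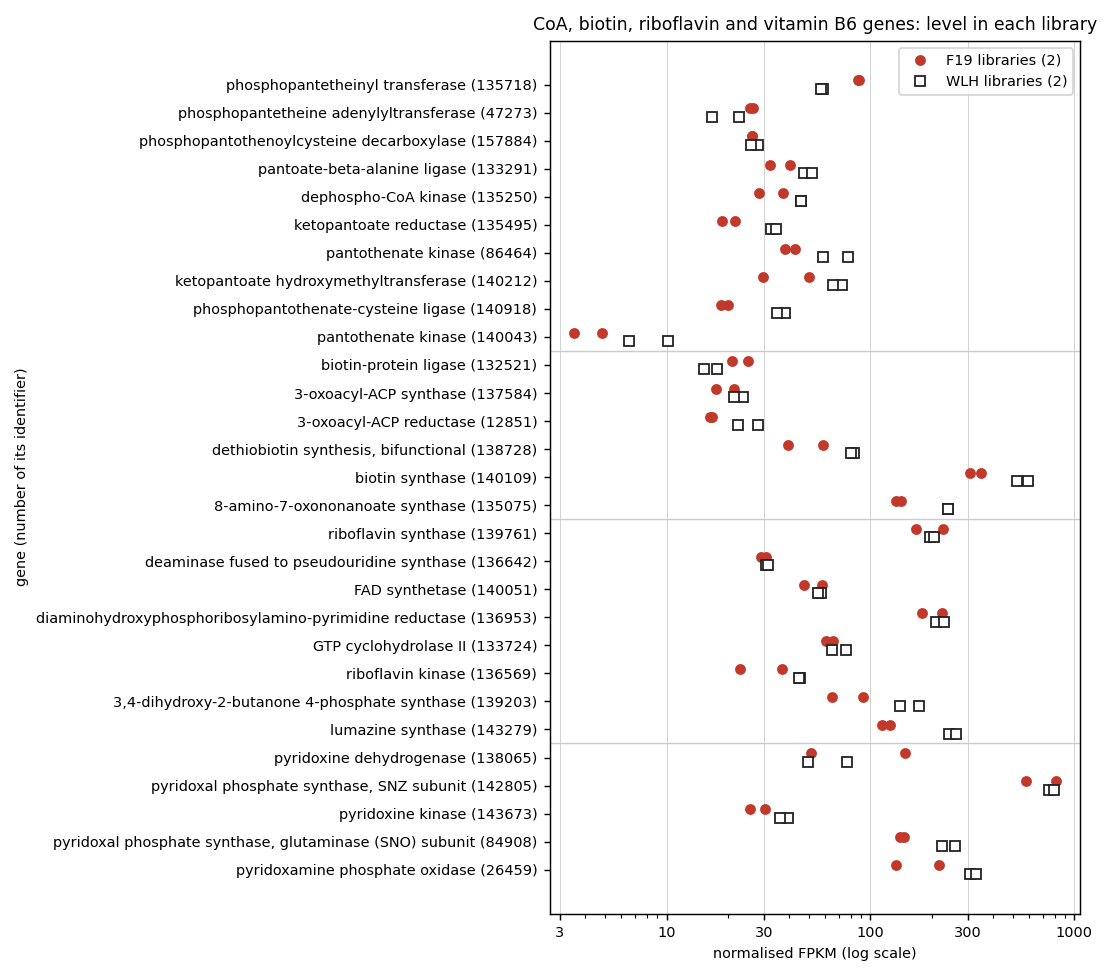
Normalised FPKM (log scale) of 29 genes of pantothenate and CoA, biotin, riboflavin and vitamin B6 in each library, with F19 as red circles above WLH as open squares, in blocks from top to bottom. In the biotin block the circles of biotin synthase lie at 348 and 306, left of the squares at 592 and 521, and in the riboflavin block 6 of 8 genes did not pass.

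Riboflavin synthesis held 2 falls, 0 rises and 6 genes that did not pass among 8. The falls made up 25% of the group, near the 25.5% of all genes that fell, and 25.9% of all genes rose. The 2 that fell supply and join the 4-carbon unit of the ring system. Lumazine synthase, BKA90DRAFT_143279 (ML756089.1, 16209 to 16803), had 125 and 114 normalised FPKM in F19 against 244 and 262 in WLH (log2 fold change -1.08 ± 0.12, SE; adjusted p = 0.000883). 3,4-dihydroxy-2-butanone 4-phosphate synthase, BKA90DRAFT_139203, had 65.1 and 91.5 in F19 against 139 and 174 in WLH (log2 fold change -1.0001 ± 0.19, SE; adjusted p = 0.00542), lost without WLH replicate 2 (adjusted p = 0.0554). Riboflavin synthase, which acts on the product of lumazine synthase, and the reductase BKA90DRAFT_136953, the group's highest by mean FPKM, overlapped between the strains, with log2 fold changes of -0.03 and -0.13. The group median was -0.14, and 0.09 with library totals.

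Vitamin B6 is made by a complex of 2 subunits. The glutaminase subunit, BKA90DRAFT_84908, which supplies ammonia, fell 1.70-fold, with 139 and 147 normalised FPKM in F19 against 224 and 261 in WLH (adjusted p = 0.00345). The synthase subunit BKA90DRAFT_142805, second in mean level of the 90 genes in both strains, had 580 and 813 in F19 and 752 and 796 in WLH, with overlapping values (adjusted p = 0.529), and was called lower without F19 replicate 2 (0.046). The fall of the glutaminase subunit was called under every alternative run, and the difference between the subunits was not tested. Pyridoxamine phosphate oxidase, BKA90DRAFT_26459, which forms pyridoxal phosphate, had 217 and 133 in F19 against 309 and 328 in WLH, a 1.82-fold fall (adjusted p = 0.0173) that was lost without WLH replicate 1 (adjusted p = 0.0866), WLH replicate 2 (0.105) and with library totals (0.0628). The remaining 2 of the 5 genes, pyridoxine kinase and pyridoxine dehydrogenase, did not pass. Falls made up 40% of the group, beside 25.5% of all genes. The group median was -0.42, and -0.19 with library totals.

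The 14 NAD genes held 3 rises, 3 falls and 8 that did not pass, or 21.4% in each direction, near the 25.9% and 25.5% of all genes. Nicotinamidase, BKA90DRAFT_46257, which opens the salvage of nicotinamide, had 8.36 and 7.63 normalised FPKM in F19 against 19.1 and 18.99 in WLH, a 2.38-fold fall (adjusted p = 0.0024). NAD synthase, BKA90DRAFT_134500, the last step to NAD, had 43.5 and 51.0 in F19 against 80.1 and 83.2 in WLH, a 1.73-fold fall (adjusted p = 0.00309). Nicotinamide riboside kinase, BKA90DRAFT_106599, fell 1.54-fold (adjusted p = 0.0418), lost without F19 replicate 2 (adjusted p = 0.154), WLH replicate 1 (0.0746) or WLH replicate 2 (0.246), with library totals (0.175) and with upper-quartile scaling (0.0513). Rising genes included the nucleotidase BKA90DRAFT_37197, which by its ortholog number releases nucleosides from pyridine and pyrimidine nucleotides. It had 134.7 and 144 in F19 against 53.8 and 57.7 in WLH, or 1.32 ± 0.12 on the log2 scale (SE; adjusted p = 0.00055). One of 3 sirtuins, deacetylases that consume NAD, rose 1.84-fold (BKA90DRAFT_141217, adjusted p = 0.00171), and 1 of 2 nicotinate phosphoribosyltransferases, BKA90DRAFT_137951, rose 1.61-fold (adjusted p = 0.0147). The last was lost without F19 replicate 2 (adjusted p = 0.0503) and WLH replicate 1 (0.119). Quinolinate phosphoribosyltransferase, BKA90DRAFT_163227, of synthesis from tryptophan and the group's highest by mean FPKM, overlapped between the strains (adjusted p = 0.44). The group median was -0.19, and 0.04 with library totals.

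Aldehyde dehydrogenases, which the annotation lists for one step toward pantothenate, oxidise many aldehydes. Of 7 genes, 3 rose, 1 fell, 2 did not pass and 1 was not tested. Among those tested 50% rose and 16.7% fell, beside 25.9% and 25.5% of all genes. BKA90DRAFT_134110 had 103 and 124 normalised FPKM in F19 against 203 and 200.03 in WLH, a 1.78-fold fall (adjusted p = 0.00354). BKA90DRAFT_136537 had 48.5 and 41.7 in F19 against 27.8 and 24.5 in WLH, a 1.72-fold rise (adjusted p = 0.00377). BKA90DRAFT_142377 rose 5.05-fold and BKA90DRAFT_161625 4.16-fold, both at under 1 normalised FPKM in WLH. Neither passed without WLH replicate 1 or WLH replicate 2. BKA90DRAFT_142377 had 29 and 26 counts in F19 and 5 and 5 in WLH, so its F19 libraries alone carried it past the filter on low counts. Where at least 1 CPM was required in all 4 libraries, 1 gene of the family rose and 1 fell among 4 tested. The most abundant of the family, BKA90DRAFT_137801, had 249 and 333 in F19 and 353 and 198 in WLH, and its WLH libraries were the farthest apart of the 89 genes.

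Several enzymes have more than 1 gene with the same ortholog number, and the copies did not always share a call. Both genes of methylenetetrahydrofolate reductase and folylpolyglutamate synthase fell, as did both pantothenate kinase models, which may be a single split gene. For C1-tetrahydrofolate synthase, nicotinate phosphoribosyltransferase and the sirtuins 1 gene was called and the rest were not. Acid phosphatases and aldehyde dehydrogenases held calls in both directions. Reads that near-identical copies share cannot be told apart from these counts. By position the 90 genes were spread over 55 scaffolds, with at most 6 on one, and 5 pairs lay within 10000 bases of each other.

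Other cofactor genes were counted in related lists. Of 20 genes tested that share a vitamin pathway but were left out for their part in amino acid or nucleotide metabolism, 14 fell and 4 rose. Among them serine hydroxymethyltransferase, BKA90DRAFT_109292, which loads folate with the one-carbon unit of serine, had 360.3 and 397 normalised FPKM in F19 against 1089 and 1008 in WLH, a 2.77-fold fall (adjusted p = 0.000761). Thymidylate synthase, BKA90DRAFT_7321, which uses methylene-folate to make DNA precursors, had 49.3 and 47.9 in F19 against 20.7 and 24.1 in WLH, a 2.17-fold rise (adjusted p = 0.00126). The largest rise there was that of the SurE-like phosphatase BKA90DRAFT_132079, 14.6-fold, and BKA90DRAFT_133335, with the ortholog number of phosphoserine aminotransferase, fell 2.72-fold.

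Of 19 porphyrin (heme) genes 11 fell and 0 rose, with coproporphyrinogen III oxidase, BKA90DRAFT_132485, 3.05-fold lower and cytochrome c peroxidase, BKA90DRAFT_139315, a heme protein, 3.82-fold lower. Of 10 ubiquinone and terpenoid-quinone genes 7 fell and 0 rose, led by 4-hydroxyphenylpyruvate dioxygenase, BKA90DRAFT_135911, 25.3-fold, followed by the flavoprotein BKA90DRAFT_177129, 2.38-fold. Of 4 lipoic acid genes 2 fell and 1 rose. The 2 genes with the ortholog number of lipoyl synthase moved apart, BKA90DRAFT_16126 with 101 and 87.5 normalised FPKM in F19 against 173 and 209 in WLH and BKA90DRAFT_16140 with 19.2 and 18.7 in F19 against 7.87 and 7.13 in WLH. Their spans overlap on opposite strands of ML755997.1, and without strand in the counting, which is not stated, reads there could not be told apart. The difference between their folds was not tested. The lipoyl transferase BKA90DRAFT_133875 fell 1.57-fold.

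Among enzymes that use a vitamin, 16 of 30 vitamin B6 enzymes fell and 3 rose. The largest falls were those of BKA90DRAFT_143743, with the ortholog number of threonine aldolase, 5.14-fold, and BKA90DRAFT_135726, 4.65-fold. The largest rises were those of BKA90DRAFT_135135, an aminotransferase that acts on glyoxylate, 2.63-fold, and BKA90DRAFT_5055, ornithine decarboxylase by its ortholog number, 2.04-fold. Transketolase, BKA90DRAFT_139137, a thiamine diphosphate enzyme of the pentose phosphate pathway, fell 2.16-fold. The list of thiamine diphosphate enzymes, drawn by enzyme name, also held the small subunit of acetolactate synthase, BKA90DRAFT_141867, which fell 1.87-fold. Use of the cofactor by that subunit was not checked. Of 2 biotin enzymes, pyruvate carboxylase, BKA90DRAFT_142815, fell 1.80-fold and the other did not pass. These counts stand beside the 25.5% of all genes that fell and the 25.9% that rose.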

How the data were processed

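The test used 4 libraries, 2 of F19 and 2 of WLH. Tools listed by the submitters' processing notes are HTSeq 0.6.1, HISAT2 2.2.1, cutadapt 1.9.1 and DESeq2. Their settings, strand use and the genome build: not given in the sources used here. The authors deposited raw counts per gene and FPKM, counts relative to exonic length and library total. A second deposited table lists 1249 genes the authors called, with a mean normalised signal, a linear fold, a log2 fold change, a test score and p-values. It lists 20 of the 90 genes, 7 as higher and 13 as lower. Over all genes, 6797 in number, it lists 667 as higher and 582 as lower. WLH replicate 1 has a column name with the letter I for the digit, and 0 sample columns were left unmapped. The 3 construct rows were left out. They took 0.333% and 0.387% of counts in the F19 libraries and 0.147% and 0.134% in the WLH libraries. The reference table held 0 of the deposited identifiers, so names come from the deposited annotation.

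The deposited counts went into edgeR 4.0.16 (R 4.3.3) (filterByExpr, TMM, quasi-likelihood test, two-sided, strain as the only term), with Benjamini-Hochberg adjustment over 6414 genes. TMM factors were 1.10 and 1.07 for F19 and 0.916 and 0.926 for WLH, and the biological coefficient of variation was 14.1%. Standard errors are fold changes (log2) over the square root of F. The edgeR test, DESeq2 and limma on log2(FPKM + 1) were each run on simulated counts with far fewer changed genes than were called here. The other alternatives were not. DESeq2 1.42.0 and limma 3.58.1 on log2(FPKM + 1) served as alternatives among 14. Pearson's r of log2 CPM across genes was 0.987 within F19, 0.992 within WLH and 0.908 to 0.929 across strains, and chi-square per degree of freedom between replicates was 68.6 and 33.0, so no library was a copy of another.

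The 90 genes, the groups and the related lists were chosen with earlier results of these data known; the division by role was made after the values were seen. Named are all thiamine genes, up to 5 called genes per direction in each other pathway and each pathway's highest gene by mean FPKM. The 2 largest changes per direction in each related list are named too. Riboflavin synthase, dihydrofolate reductase, aminodeoxychorismate synthase, pyridoxine kinase, pyridoxine dehydrogenase and the other one-carbon genes were added after their values were seen. So were BKA90DRAFT_135495, BKA90DRAFT_137581, BKA90DRAFT_98450, BKA90DRAFT_133291 and BKA90DRAFT_135250. No sequences of these genes were used here.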

Additional observations from a re-analysis of the deposited data

How the results depend on the processing

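Of the 62 vitamin and cofactor genes named by the rule, 47 were called, 22 of these kept their call under all 14 alternatives, and 0 changed direction while called. Leaving out 1 library gave 1670 to 3121 calls over all genes, 6 to 16 of the 89 genes higher, 21 to 37 lower and a median log2 fold change of -0.36 to -0.20. A strain left with 1 library borrowed its spread from the other strain. With library totals 22 genes were higher and 23 lower, with a median of -0.019, and limma on log2(FPKM + 1) and on log2(FPKM + 0.1) gave medians of -0.036 each; these values carry no scaling factor, and all genes then had medians of 0.24, 0.23 and 0.24. Replicate numbers did not pair the samples: the correlation across genes of the differences between replicates 1 and 2 of the strains was -0.0908. With the replicate number as a block 3369 genes were called, 15 of the vitamin and cofactor genes rose and 39 fell, their median was -0.26 and thiamine thiazole synthase rose 9.34-fold. With 2 libraries a strain, small changes of low genes such as the acid phosphatases are limited by depth.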

Other observations

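Only 4 of the 6414 genes tested had F19 libraries at least 8-fold apart (0.5 CPM added), and thiamine thiazole synthase was one of them. The other 3 are named because of these values. The ratios that follow are of normalised FPKM with nothing added. The mitochondrial ADP/ATP carrier BKA90DRAFT_173279 was 11.4-fold higher in F19 replicate 2 than in F19 replicate 1, and BKA90DRAFT_130772, of the isocitrate and isopropylmalate dehydrogenase family, was 9.11-fold higher. The hypothetical gene BKA90DRAFT_143709 went the other way, 8.66-fold higher in F19 replicate 1. In WLH the same 3 genes had ratios of replicate 2 over replicate 1 of 1.40, 0.900 and 2.14, and thiamine thiazole synthase had 1.58. Thiamine thiazole synthase and the carrier, both higher in replicate 2 of F19, rose in F19 whichever F19 library was left out. The carrier rose 3.68-fold without F19 replicate 2 and 41.8-fold without F19 replicate 1. In these fits the spread comes from the WLH libraries alone, and the gap between the F19 libraries is left out. Neither gene passed without WLH replicate 1, without WLH replicate 2 or in a robust fit, with adjusted p of 0.115, 0.0949 and 0.086 for the carrier. The cause of the gap was not tested.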
